A study of Rattus norvegicus with 22 samples.

Results

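The EGF family of the rat lung was followed through acute pulmonary embolism (PE) by 8 genes: the ligands Hbegf, Areg, Ereg, Tgfa and Btc and the receptors Egfr, Erbb2 and Erbb3. The members were taken by gene symbol, in a family that was chosen with earlier results of these data known, and 11 of 31042 probesets, for 8 of 14217 measured genes, carried these symbols. Tgfa had 2 probesets, Egfr had 3 and the other members 1 each. A member with several probesets is given by the one with the highest mean signal.

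The RNA was of right lung from 22 male Sprague–Dawley rats of about 350 g, with 1 Affymetrix array per rat. To produce PE, polystyrene microspheres of 25 microns were injected by way of the right jugular vein. Mild PE rats received 1300000 of them per 100 g in 0.10 ml, Severe PE rats 2000000 per 100 g in 0.15 ml, and Vehicle rats 0.15 ml per 100 g of the Tween-20 carrier without microspheres, so that the Mild PE rats also received the smaller volume. Lungs were taken 2 h or 18 h later, after lavage with 8 ml of saline, with 3 rats per Vehicle group and 4 per PE group at each time. The vessels were occluded by beads and not by a blood clot, and lavage removed cells of the air spaces in all groups. The labels call the rats of a group biological replicates. Lung tissue was measured as a whole, and fewer cells of a type and less RNA per cell cannot be told apart. All 8 measured marker genes of alveolar type II cells and all 8 of endothelium were above the lowest value on all 22 arrays.

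The EGF family ligands are made as membrane proteins whose outer part is cut off by proteases, chiefly ADAM17 and ADAM10, and released to act on nearby cells. The ligands followed here bind EGFR or ERBB4, which pair with each other or with ERBB2 (which has no known ligand) and ERBB3 (whose kinase is weak). The pairs signal through RAS and ERK and through PI3 kinase. In the lung the family is known for its part in the repair of epithelium after injury. Values are log2 signals, in which 1 unit is a doubling and 4 is the lowest value, set for signals under 16. A gene was called when the limma test gave a Benjamini-Hochberg adjusted p under 0.05 over all probesets together with a difference of at least 1.5-fold.

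The members called between a pair of groups were 3 ligands, and all were higher in 2-h Severe PE. Hbegf, which encodes heparin-binding EGF-like growth factor, rose 2.74-fold in 2-h Severe PE over Vehicle. Areg, which encodes the EGFR ligand amphiregulin, rose 3.84-fold, and Ereg, which encodes epiregulin, a ligand of EGFR and ERBB4, rose 2.23-fold in 2-h Severe PE over 2-h Mild PE, without being called against Vehicle. No member was called in a comparison of a pair of groups at 18 h, and no receptor was called in any comparison by its brightest probeset.

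**Figure D1:**
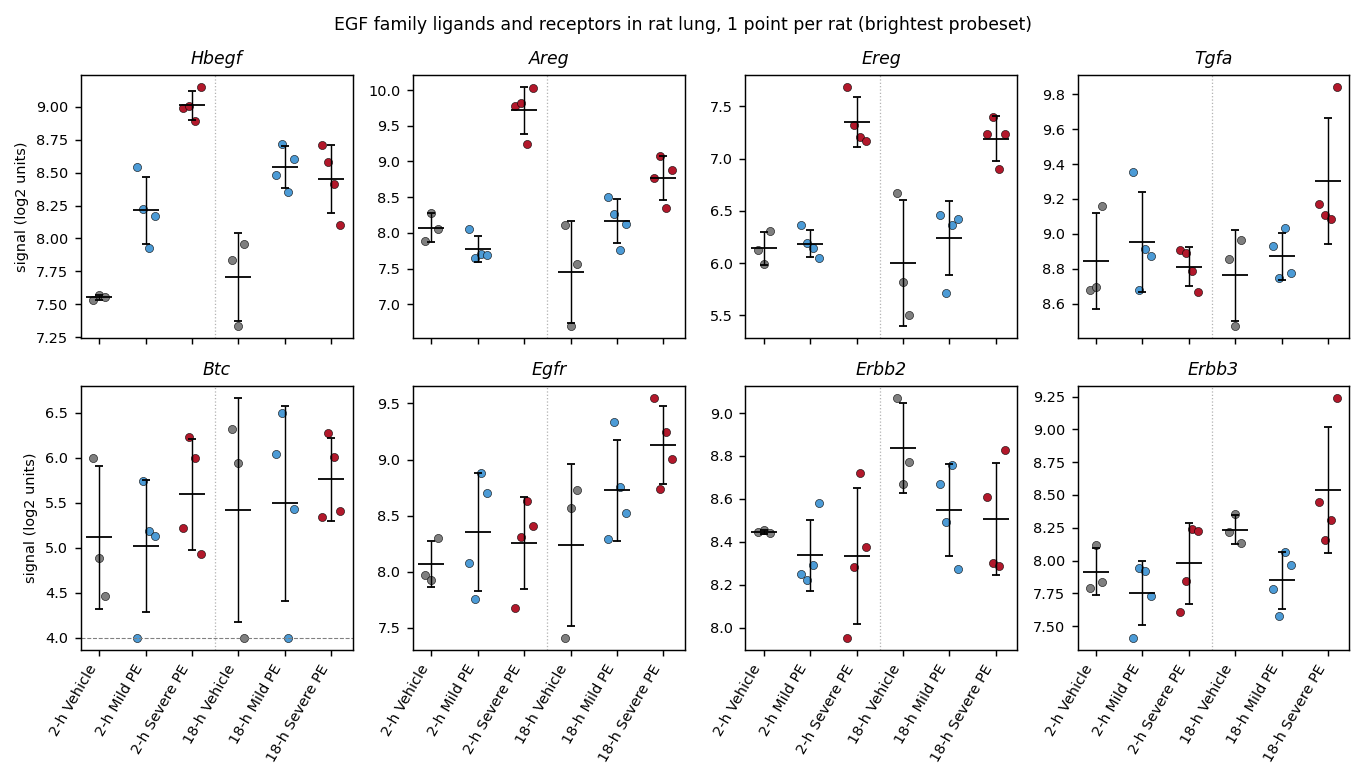
Log2 signal of each member (y axis, brightest probeset) in the 6 groups (x axis), with 1 point per rat and bars for mean ± SD of 3 or 4 rats; the dashed line in the Btc panel marks the lowest value of 4. The 4 rats of 2-h Severe PE lie above all Vehicle and Mild PE rats of that time for Hbegf, Areg and Ereg, while the groups of the receptors overlap at 2 h.

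At 2 h the Hbegf signal (probeset 1368983_at) was 7.53, 7.57 and 7.56 in the Vehicle rats, 8.54, 8.22, 7.93 and 8.17 in the Mild PE rats, and 8.99, 9.0, 8.89 and 9.15 in the Severe PE rats. The 3 groups did not overlap, with Mild PE between the others. Severe PE exceeded Vehicle by 1.46 ± 0.07 (SE; limma adjusted p = 0.0148). This was 1 of 8 members called, against 0.0422% of all genes (6 of 14217). Severe PE exceeded Mild PE by 0.80 ± 0.13 (adjusted p = 0.0669) and Mild PE exceeded Vehicle by 0.66 ± 0.14 (adjusted p = 0.161), so neither step was called alone. Hbegf was the single member of which Mild PE and Vehicle did not overlap at 2 h, and 15.2% of all genes were separated so, in either direction.

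The call for Hbegf in 2-h Severe PE against Vehicle was not made without Vehicle rat 3 (adjusted p = 0.0644) or without Severe PE rat 2 (adjusted p = 0.067), while the difference stayed between 1.41 and 1.49 whichever rat was left out. It was also lost without the arrays of low 5′ signal, which were 2-h Vehicle rat 3 and 2-h Severe PE rat 1 at this time (difference 1.46, adjusted p = 0.121). The summed signal of 4 platelet markers was 11.9 to 12.5 in 2-h Vehicle. It was 12.7 to 12.9 in Mild PE and 12.7 to 13.2 in Severe PE, both above Vehicle. A sum weighs the brightest gene of a list most, here Pf4 (mean log2 12.5 over all arrays, the other markers at most 8.91). By the mean log2 of the 4 markers Severe PE overlapped Vehicle. Severe PE rat 1 was at 8.40, and Vehicle rats 1 and 2 at 8.54 and 8.62. The summed endothelial markers were lower in 2-h Severe PE (15.36 to 15.52) than in Vehicle (15.55 to 15.62) without overlap. In 2-h Mild PE the sums of endothelial and of macrophage and monocyte markers lay above Vehicle and those of alveolar type I and fibroblast markers below it, without overlap. These were the lists of 14 whose sums did not overlap with Vehicle at 2 h. By mean log2, endothelium in Severe PE and the platelet and macrophage and monocyte lists in Mild PE were again separate from Vehicle. In Mild PE endothelium (12.08 to 12.21 against 12.02 to 12.19) overlapped Vehicle. So did alveolar type I (12.63 to 12.74 against 12.66 to 12.79) and fibroblast (11.59 to 11.75 against 11.66 to 11.83). The part of these lists in the Hbegf result was not tested.

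At 18 h Hbegf was 7.84, 7.33 and 7.96 in Vehicle, 8.48, 8.72, 8.35 and 8.61 in Mild PE, and 8.71, 8.58, 8.41 and 8.10 in Severe PE. Both PE groups lay above all Vehicle rats and overlapped each other. The differences from Vehicle were 0.83 ± 0.18 in Mild PE (adjusted p = 0.0847) and 0.74 ± 0.21 in Severe PE (adjusted p = 0.088), and none was called. The 1-way test over the 3 groups at 18 h called Hbegf (adjusted p = 0.0385), a call kept only without Mild PE rat 3 or Severe PE rat 4 among the 11 fits with 1 rat left out (adjusted p = 0.0317 to 0.106). In order of mean, Hbegf was lowest in 2-h Vehicle, followed by 18-h Vehicle, 2-h Mild PE, 18-h Severe PE, 18-h Mild PE and lastly 2-h Severe PE, and the last step was the only one between neighbours whose rats did not overlap. The interaction of time and dose over all 22 arrays was called for Hbegf (adjusted p = 0.0409), 1 of 8 members against 5.35% of genes, and remained called in 6 of 22 fits with 1 rat left out (adjusted p = 0.0194 to 0.0889). The difference of Severe PE from Vehicle was smaller at 18 h than at 2 h by 0.71 ± 0.23, which was not called as a contrast (adjusted p = 0.0717).

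Areg (probeset 1369871_at) at 2 h was 7.88, 8.28 and 8.06 in Vehicle, 8.05, 7.64, 7.70 and 7.69 in Mild PE, and 9.78, 9.82, 9.24 and 10.03 in Severe PE. All Severe PE rats were above all others, and Mild PE overlapped Vehicle from below. Severe PE exceeded Mild PE by 1.94 ± 0.18 (limma adjusted p = 0.0140). Together with Ereg this made 2 of 8 members called, both higher, against 0.549% of all genes called in this comparison and 0.302% called higher. Severe PE exceeded Vehicle by 1.64 ± 0.21 without being called (adjusted p = 0.124), and Mild PE differed from Vehicle by −0.30 ± 0.14 (adjusted p = 0.429). The Areg call was lost without Mild PE rat 2, 3 or 4 (adjusted p = 0.0577, 0.0621 and 0.055), with a difference of 1.84 to 2.10 over all rats left out.

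Ereg (probeset 1369587_at) had the same order of groups relative to Severe PE. Its 2-h values were 6.13, 5.99 and 6.31 in Vehicle, 6.36, 6.20, 6.14 and 6.05 in Mild PE, and 7.69, 7.32, 7.21 and 7.17 in Severe PE. Vehicle and Mild PE overlapped, and Severe PE was above both. Severe PE exceeded Mild PE by 1.16 ± 0.13 (adjusted p = 0.0237) and Vehicle by 1.20 ± 0.15 (adjusted p = 0.124), and Mild PE differed from Vehicle by 0.04 ± 0.10 (adjusted p = 0.912). The Ereg call against Mild PE was lost with most rats left out: of the 8 fits with 1 rat left out it was kept only without Severe PE rat 1, and in the others the adjusted p was 0.0502 to 0.0904. Whether the Mild PE response of Hbegf differed from that of Areg or Ereg was not tested.

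The 1-way test over the 3 groups at 2 h called these 3 ligands and no other member, 3 of 8 against 0.978% of all genes. The adjusted p was 0.00347 for Areg and 0.00583 for Ereg, and leaving out any 1 rat kept it at or under 0.0229 for each of the 3 ligands. For each of them, 2-h Severe PE and both other 2-h groups were without overlap, as 7.5% of genes were between Severe PE and Vehicle and 9.12% between Severe PE and Mild PE. At 2 h the summed endothelial markers were 15.7 in all Mild PE rats and 15.4 to 15.5 in the Severe PE rats, and the summed alveolar type I markers were 15.7 to 15.8 and 15.8 to 15.9. The summed lymphocyte markers were 11.4716 to 11.7917 in Mild PE and 11.0728 to 11.4691 in Severe PE. By sum none of these 3 lists overlapped between the groups. By mean log2 endothelium stayed separate, but lymphocyte (8.68 to 8.99 in Mild PE, 8.37 to 8.74 in Severe PE) overlapped. Alveolar type I (12.63 to 12.7402 and 12.7385 to 12.84) overlapped as well, and alveolar type II (13.66 to 13.73 and 13.74 to 13.89) did not. Of 76 markers in 14 lists, Cd8a of T cells was the single gene called between these groups, where 0.549% of all genes were called. It was lower by 1.56 ± 0.15 in Severe PE (adjusted p = 0.0148). The part of these markers in the ligand results was not tested.

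At 18 h Areg was 8.11, 6.69 and 7.56 in Vehicle, 8.50, 8.27, 7.76 and 8.12 in Mild PE, and 8.77, 9.08, 8.35 and 8.88 in Severe PE. Vehicle spread over more than 1 unit, and Severe PE was above all Vehicle rats but overlapped Mild PE. The difference of Severe PE from Vehicle was 1.32 ± 0.36 (adjusted p = 0.0828). The 18-h values of Ereg were 6.68, 5.82 and 5.51 in Vehicle, 6.46, 5.71, 6.37 and 6.42 in Mild PE, and 7.23, 7.40, 6.90 and 7.24 in Severe PE. For Ereg the Severe PE rats were again above all others, by 1.19 ± 0.30 over Vehicle (adjusted p = 0.0638) and by 0.95 ± 0.19 over Mild PE (adjusted p = 0.132). The 1-way test at 18 h called Hbegf and Ereg (adjusted p = 0.0477), 2 of 8 members against 10.7% of genes, and Areg had an adjusted p of 0.0721. With 1 rat left out Ereg was called only without Vehicle rat 1 (adjusted p = 0.0198, otherwise up to 0.122). Without that rat, an array of low 5′ signal, Ereg exceeded Vehicle by 1.53 in Severe PE and was called (adjusted p = 0.0255). Summed macrophage and monocyte markers were 13.5 to 13.8 in 18-h Vehicle, 14.1 to 14.6 in Mild PE and 14.2 to 14.5 in Severe PE. In 18-h Severe PE, 6 of the 14 lists were below Vehicle without overlap: endothelium (15.0 to 15.3 against 15.7), alveolar type I (15.2 to 15.5 against 15.7 to 15.9), lymphocyte (10.98 to 11.57 against 12.1 to 12.5), mast cell (9.84 to 10.6 against 10.9 to 11.4), heart muscle (11.03 to 11.78 against 11.9 to 13.1) and airway club and ciliated cells (14.75 to 14.85 against 14.91 to 15.10). Also by sum, in 18-h Mild PE endothelium and alveolar type I were below Vehicle without overlap. Between the doses at 18 h alveolar type II was higher and heart muscle lower in Severe PE without overlap. These separations held by mean log2. By that measure airway club and ciliated cells in 18-h Mild PE (10.51 to 10.91) were also below Vehicle (10.98 to 11.09). Mesothelium was then higher in 18-h Severe PE than in 18-h Mild PE (8.53 to 8.95). The part of these markers in the 18-h results was not tested.

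Over the 6 groups the mean of Areg rose from 18-h Vehicle through 2-h Mild PE, 2-h Vehicle, 18-h Mild PE and then 18-h Severe PE to 2-h Severe PE, and rats of neighbours in that order overlapped except at the last step. For Ereg the 4 lower groups, both Vehicle and both Mild PE, had means between 6.0 and 6.24 and overlapped, and the Severe PE groups had means of 7.19 and 7.35 and overlapped each other. The dose term of the 2-way model over all 22 arrays called Hbegf (adjusted p = 5.61e-05), Areg (0.000140) and Ereg (0.000186). These were 3 of 8 members against 13.7% of genes, and each remained called whichever rat was left out.

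**Figure D2:**
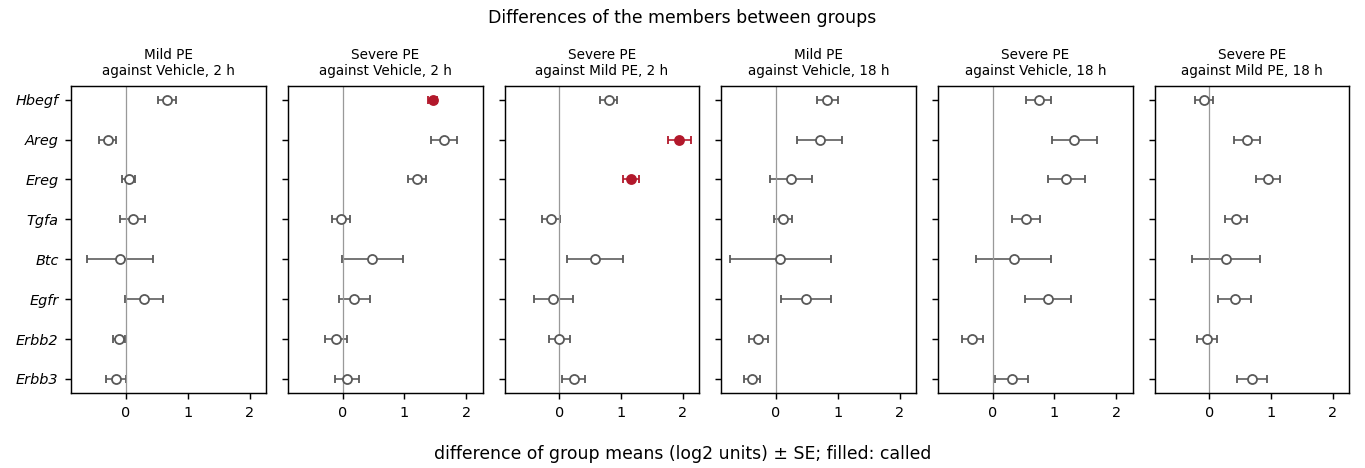
Difference of group means in log2 units (x axis) with its SE for each member (y axis) in the 6 comparisons within a time; filled points were called. The 3 filled points are Hbegf at 1.46 in 2-h Severe PE against Vehicle, and Areg at 1.94 and Ereg at 1.16 in 2-h Severe PE against Mild PE.

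Areg and Ereg are neighbours on rat chromosome 14 in the RefSeq annotation of assembly GRCr8, and Btc precedes them. The order there is Btc, Areg, Ereg, Epgn, Mthfd2l (a folate enzyme of mitochondria), Cxcl2 and Cxcl1, which encode neutrophil-attracting chemokines. Epgn, another EGF family ligand gene, had no probeset of its own and was not measured. The stretch was chosen after the values of its genes were seen. Btc and Mthfd2l were the nearest measured genes on either side of the pair. Between 2-h Severe PE and Mild PE they differed by 0.58 ± 0.45 (adjusted p = 0.715) and 0.17 ± 0.14 (adjusted p = 0.721). Cxcl1 was higher by 1.36 ± 0.30 (adjusted p = 0.124) and its 4 Severe PE rats were above all Mild PE and Vehicle rats. Cxcl2 was already higher in 2-h Mild PE than in Vehicle, by 3.80 ± 0.30 (adjusted p = 0.0204), and differed between the doses by −0.62 ± 0.26 (adjusted p = 0.407).

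**Figure D3:**
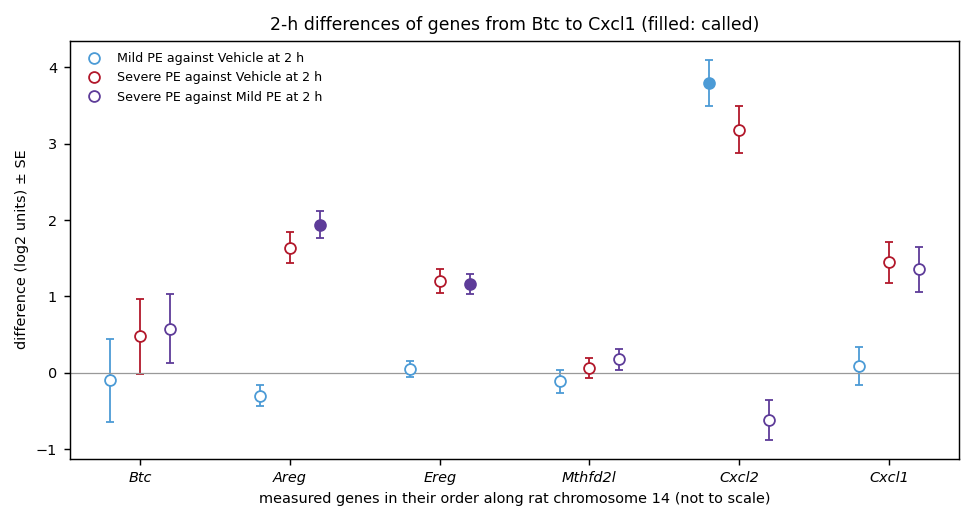
Difference of group means at 2 h in log2 units ± SE (y axis) for the 6 measured genes of the stretch in their order on chromosome 14 (x axis, not to scale); filled points were called. Areg at −0.30 and Ereg at 0.04 are not raised in Mild PE and both are above 1 in the 2 comparisons of Severe PE, Btc and Mthfd2l stay below 0.6, and Cxcl2 is above 3 in both doses against Vehicle.

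The promoters of Areg, Btc and Cxcl1 are given from RefSeq (GRCr8), 5′ to 3′ on the strand of the gene. Btc is the measured family member of the same stretch that was not called, and Cxcl1 the gene of most similar pattern. Each window runs from 250 bases before to 50 bases after the start of the gene. Areg lies at chr14:17265592-17265891 (minus strand), Btc at chr14:16992418-16992717 (plus strand) and Cxcl1 at chr14:17479272-17479571 (minus strand). Capitals mark exact matches to 5 motifs that do not overlap each other here, searched on both strands: the cAMP response element TGACGTCA, the AP-1 site TGACTCA, the EGR site GCGGGGGCG, the NF-κB site GGAATTTCC and the TATA box TATAAA.
Areg: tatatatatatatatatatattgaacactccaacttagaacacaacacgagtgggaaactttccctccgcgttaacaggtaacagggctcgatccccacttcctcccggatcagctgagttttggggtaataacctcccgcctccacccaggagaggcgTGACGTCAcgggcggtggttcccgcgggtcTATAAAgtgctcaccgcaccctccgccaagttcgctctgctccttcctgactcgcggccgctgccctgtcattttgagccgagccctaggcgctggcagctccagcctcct
Btc: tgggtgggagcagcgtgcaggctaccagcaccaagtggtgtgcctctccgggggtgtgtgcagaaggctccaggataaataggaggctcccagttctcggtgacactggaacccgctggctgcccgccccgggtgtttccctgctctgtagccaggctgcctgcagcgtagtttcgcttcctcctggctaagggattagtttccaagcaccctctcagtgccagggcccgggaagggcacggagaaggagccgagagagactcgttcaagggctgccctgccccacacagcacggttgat
Cxcl1: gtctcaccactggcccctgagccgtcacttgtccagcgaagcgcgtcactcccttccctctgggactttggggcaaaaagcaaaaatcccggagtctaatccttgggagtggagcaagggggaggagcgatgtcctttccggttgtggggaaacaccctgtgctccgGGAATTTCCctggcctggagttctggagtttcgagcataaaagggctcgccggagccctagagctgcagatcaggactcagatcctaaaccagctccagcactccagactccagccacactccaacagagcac

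In the Areg window TGACGTCA starts 91 bases and TATAAA 61 bases before the start of the gene. Among all 33469 rat promoters of this length, 1.83% held TGACGTCA and 14.2% held TATAAA. The Cxcl1 window held GGAATTTCC, 83 bases before the start, as 0.332% of promoters did, and the Btc window held no match. The AP-1 site was found in 4.63% and the EGR site in 2.73% of promoters and in none of these 3 windows. Of the 8 members 6 had a promoter in the table, and Areg was the single one with any match. A match describes the letters and not a bound factor.

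Tgfa, which encodes transforming growth factor alpha, was 8.68, 8.69 and 9.16 in 2-h Vehicle, 9.36, 8.68, 8.91 and 8.87 in 2-h Mild PE, and 8.91, 8.89, 8.79 and 8.66 in 2-h Severe PE, and all 3 groups overlapped. At 18 h it was 8.86, 8.47 and 8.97 in Vehicle, 8.93, 8.75, 9.03 and 8.77 in Mild PE, and 9.17, 9.11, 9.09 and 9.84 in Severe PE. By this brighter probeset the 18-h Severe PE rats were above the other rats of that time, and 1 of them stood well above the rest. By the dimmer probeset they were only just above the Vehicle rats (lowest Severe PE rat 7.2869, highest Vehicle rat 7.285) and overlapped Mild PE. The difference from Vehicle was 0.54 ± 0.23 by the brighter probeset (adjusted p = 0.22) and 0.53 ± 0.20 by the other (adjusted p = 0.175), and neither was called. The dimmer probeset of Tgfa was the only one of the 11 called for time in the 2-way model (adjusted p = 0.0427), a term that called 17.6% of all probesets, and by brightest probeset 0 of 8 members were called for time against 22.6% of genes.

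Btc, which encodes betacellulin, was near the lower end of the range, with group means of 5.02 to 5.76, SDs of 0.46 to 1.25 and 3 rats at the lowest value. Its 2-h Severe PE values of 5.22, 6.23, 6.0 and 4.93 overlapped the Vehicle values of 6.0, 4.89 and 4.46. The largest of its differences within a time was 0.58, and its largest SE was 0.82. With this spread changes of that size were not detectable, and the smallest detectable change of Btc was not computed.

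The main receptor, Egfr, was 7.97, 7.93 and 8.30 in 2-h Vehicle, 8.08, 7.76, 8.88 and 8.70 in 2-h Mild PE, and 7.68, 8.31, 8.63 and 8.41 in 2-h Severe PE. These groups overlapped, and Severe PE differed from Vehicle by 0.19 ± 0.25 (adjusted p = 0.895). At 18 h Egfr was 7.41, 8.57 and 8.73 in Vehicle, 8.29, 9.33, 8.75 and 8.52 in Mild PE, and 9.55, 8.73, 9.24 and 9.01 in Severe PE. The Severe PE rats were above the Vehicle rats by a margin of less than 0.01, and the means differed by 0.90 ± 0.37 (adjusted p = 0.208). Its other probesets gave 0.40 ± 0.21 (adjusted p = 0.305) and 0.17 ± 0.20 (adjusted p = 0.662), the latter at or near the lowest value on all arrays (group means 4 to 4.46).

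Erbb2, the partner receptor, had group means between 8.33 and 8.84. Its 2-h Vehicle values of 8.44, 8.46 and 8.44 lay within the range of 2-h Severe PE (7.95, 8.28, 8.72 and 8.38), and the difference was −0.11 ± 0.18 (adjusted p = 0.92). In 18-h Severe PE it was 8.61, 8.30, 8.29 and 8.83 against 9.07, 8.67 and 8.77 in Vehicle, overlapping, with a difference of −0.33 ± 0.17 (adjusted p = 0.313).

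Erbb3, the receptor that couples to PI3 kinase, had 2-h means of 7.75 to 7.98 that overlapped in all 3 groups. At 18 h it was 8.22, 8.35 and 8.13 in Vehicle, 7.78, 7.57, 8.07 and 7.97 in Mild PE, and 8.45, 8.16, 8.31 and 9.24 in Severe PE. Mild PE was below all rats of the other groups without being called, by −0.39 ± 0.13 from Vehicle (adjusted p = 0.204), and Severe PE exceeded Mild PE by 0.69 ± 0.25 (adjusted p = 0.286). Erbb2 and Erbb3 were also the members whose Vehicle rats did not overlap between times, higher at 18 h by 0.39 ± 0.12 and 0.32 ± 0.12 (adjusted p = 0.268 and 0.31). A separation in either direction was seen in 29.1% of genes, and none of 14217 was called between the Vehicle groups by limma, although 20.3% of genes had an unadjusted p under 0.05.

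In 18-h Severe PE against Vehicle, 5 of 8 members (Hbegf, Areg, Ereg, Tgfa and Egfr) were higher without overlap, as were 14.5% of all genes (31.3% did not overlap in either direction), and 0 of 8 were called against 9.9% of genes. An unadjusted limma p under 0.05 was found for 3 of the 8 members and for 33.4% of genes, a share close to that of the members. In 18-h Mild PE against Vehicle, 2 of 8 members did not overlap against 22.4% of genes, 2 had an unadjusted p under 0.05 against 24.6%, and 0 were called against 1.43%. Between the doses at 18 h, 3 of 8 did not overlap against 10.6% of genes, 3 had an unadjusted p under 0.05 against 17.3% (2460 genes), and no gene of 14217 was called by limma. In 2-h Mild PE against Vehicle, 0 of 8 members were called against 0.429% of genes, with 1 at an unadjusted p under 0.05 against 15.5% of genes. For the change of an effect between times, 0 of 8 were called for Mild PE (1.13% of genes) and for Severe PE (8.22%). For these contrasts 1 and 2 members had an unadjusted limma p under 0.05, a share that was not counted over all genes. The median difference of the members was 0.33 and 0.40 in 2-h Severe PE against Vehicle and Mild PE and 0.64 in 18-h Severe PE against Vehicle, where the median over all genes was within 0.01 of 0.

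No other measured member of the family was called. Of 7 other ligands and receptors listed, 5 were measured, namely Egf, Nrg1, Nrg2, Nrg4 and Erbb4, and none passed in any test. Epgn and Nrg3 had no probeset of their own. Erbb4, a receptor of the neuregulins, was at or near the lowest value, with group means of 4 to 4.19. Of 9 measured genes for the release of the ligands, none was called between a pair of groups. Rhbdf2, whose product iRhom2 carries ADAM17 to the cell surface, was called for dose in the 2-way model (adjusted p = 0.00158). It was 1 of the 9 called for dose, against 13.7% of all genes. Its differences from Vehicle were 0.53 ± 0.11 in 2-h Severe PE (adjusted p = 0.272) and 0.43 ± 0.11 in 18-h Severe PE (adjusted p = 0.0734). Adam17 itself differed by −0.07 ± 0.34 and 0.31 ± 0.21.

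Among 15 measured adaptors and kinases of the pathway, Gab1, a docking protein of growth factor receptors, was the single gene called between a pair of groups, at −0.88 ± 0.13 in 18-h Severe PE against Vehicle (adjusted p = 0.0201). That was 1 of 15, against 9.9% of all genes called, and the median difference of the 15 was 0.06 in that comparison. Among 13 measured feedback genes, Dusp5, a phosphatase of ERK in the nucleus, rose by 1.35 ± 0.13 in 2-h Mild PE (adjusted p = 0.0302) and by 0.66 ± 0.10 in 18-h Mild PE (adjusted p = 0.0491). In each of these comparisons with Vehicle it was 1 of 13 called, against 0.429% of all genes at 2 h and 1.43% at 18 h. Against Vehicle, Dusp5 differed by 0.87 ± 0.22 in 2-h Severe PE (adjusted p = 0.386). In 18-h Severe PE 2 of the 13 were called, against 9.9% of all genes. Both are RAS inhibitors of the Sprouty family and they went opposite ways, with Spry4 higher by 0.72 ± 0.08 (adjusted p = 0.0108) and Spry1 at −0.66 ± 0.12 (adjusted p = 0.0307).

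The 17 genes that respond to ERK signaling, which many other pathways also induce, were all measured. In 2-h Mild PE 4 of the 17 were called, all higher, against 0.429% of all genes. They were Egr2 (1.91 ± 0.09, adjusted p = 0.00467), Egr1 (2.40 ± 0.19, 0.0204), Ier3 (1.57 ± 0.12, 0.0204) and Junb (1.76 ± 0.19, 0.0423), and the median of the list was 0.98. In 2-h Severe PE, where 0.0422% of all genes were called, only Egr1 of the list was. Egr1, a zinc finger transcription factor, was at 3.18 ± 0.20 (adjusted p = 0.0254), and the median of the list was 1.71. From Mild to Severe PE at 2 h, 3 of the 17 were called, against 0.549% of all genes. Egr1 rose by 0.78 ± 0.08 (adjusted p = 0.0148), the AP-1 gene Fos by 1.31 ± 0.14 (0.0208) and Phlda1 by 0.76 ± 0.10 (0.0421). The 1-way test at 2 h called 11 of the 17, against 0.978% of all genes.

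At 18 h Egr2 rose in Mild PE by 1.75 ± 0.26 (adjusted p = 0.0484) and Plaur, the urokinase receptor, by 1.49 ± 0.22 (adjusted p = 0.0485). They were the 2 of 17 called there, against 1.43% of all genes. In Severe PE Plaur rose by 1.96 ± 0.16 (adjusted p = 0.00591), the AP-1 genes Fosl1 by 2.63 ± 0.22 (0.00631) and Junb by 1.09 ± 0.18 (0.0246), and Myc by 1.30 ± 0.22 (0.0252). The fifth called gene, the ETS factor Etv5, lies outside the naming rule and was at −0.98 ± 0.20 (adjusted p = 0.0381). These 5 of 17 in 18-h Severe PE stood against 9.9% of all genes called. For 5 of the 17 the Severe PE effect was smaller at 18 h than at 2 h by the contrast of times, which called 8.22% of all genes. Among them were Ier2 at −1.12 ± 0.24 (adjusted p = 0.00885) and Fosb at −2.40 ± 0.53 (adjusted p = 0.0119).

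**Figure D4:**
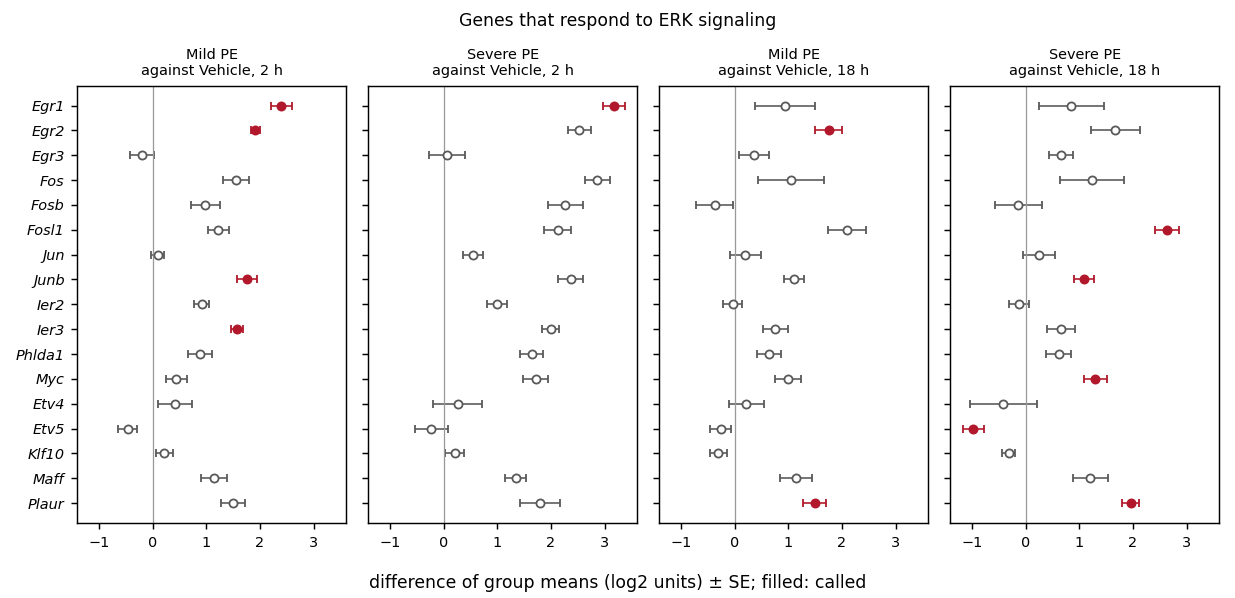
Difference from Vehicle in log2 units (x axis) with its SE for the 17 ERK-responsive genes (y axis) in Mild and Severe PE at 2 h and 18 h; filled points were called. Egr1 reaches 3.18 in 2-h Severe PE, and Fosl1 and Plaur reach 2.63 and 1.96 in 18-h Severe PE.

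The genes whose 6 group means lay nearest to those of each called ligand were found by the root mean square (RMS) difference of centred means, over 6 groups and 14217 genes. Nearest to Hbegf were Trib1 (RMS 0.115), Slc25a25 (0.116), Zfand2a (0.121), Nab2 (0.129) and Tnfaip6 (0.143), against a range of the Hbegf means of 1.46. Nearest to Areg were Cxcl1 (0.191), the chaperone gene Dnaja1 (0.291), Ereg (0.308), Bpifa1 (0.342) and Chordc1 (0.357), against a range of 2.26. Nearest to Ereg were Cxcl1 (0.211), Ptar1 (0.235), Cebpd (0.237), Tmem52 (0.240) and Enc1 (0.244), against a range of 1.35. Cxcl1 thus headed the lists of both Areg and Ereg. Ptar1 and Tmem52 had group means at the lowest value of 4, which limits the comparison of their shape.

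**Figure D5:**
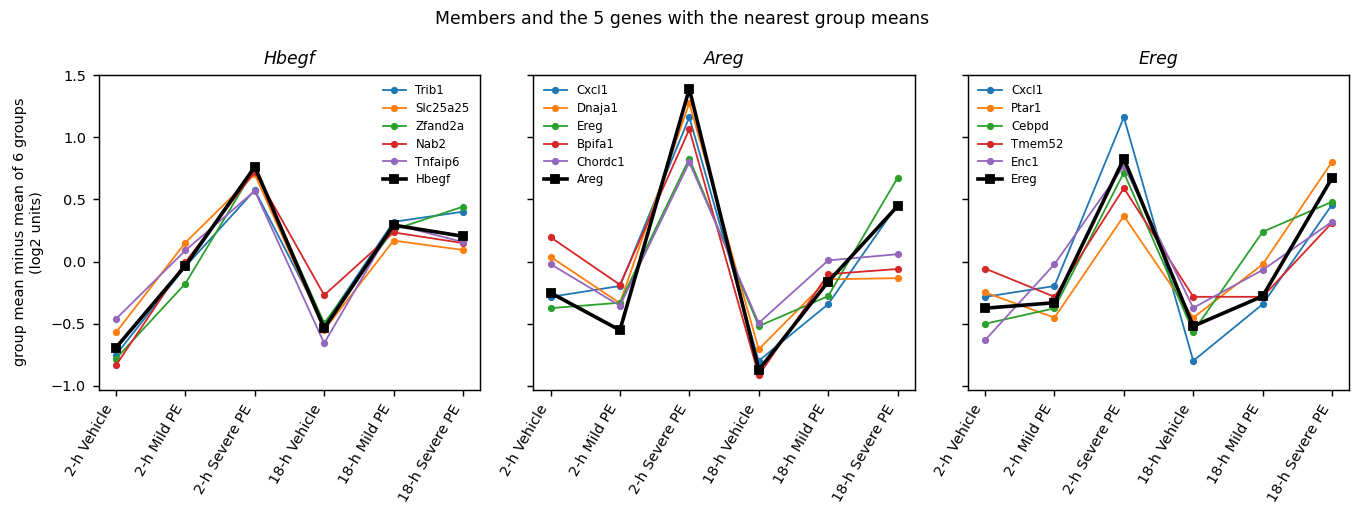
Group means minus the mean of the 6 groups in log2 units (y axis) for Hbegf, Areg and Ereg (black) and the 5 genes nearest to each (colours) over the 6 groups (x axis). Hbegf and its nearest genes step up from Vehicle to Mild PE to Severe PE at 2 h, whereas Areg, Ereg and Cxcl1 are at their highest or near it in 2-h Severe PE and low in 2-h Vehicle and 2-h Mild PE.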

How the data were processed

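Each rat had 1 Affymetrix array. The authors deposited linear signal intensities per probeset, scaled to a trimmed mean of 500.1 to 500.2 per array. They are not the GC-RMA log2 values of the study's methods, and the software that summarised the probes is not given in the sources used here. The 57 control probesets were left out of 31099. Signals under 16 (13.6% to 17.3% of probesets per array) were set to 16, log2 was taken and arrays were quantile normalized. Gene names are those of the platform annotation: 20826 probesets had 1 symbol, 436 several and 9780 none.

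Models were fitted with limma 3.58.1 (lmFit, then eBayes) in R 4.3.3. Pairwise comparisons used the arrays of the 2 groups, 1-way tests the 3 groups of a time, and the 2-way model all 22 arrays, with p-values adjusted over all 31042 probesets. The 1.5-fold threshold applied to the difference of means, to the larger difference from Vehicle in the 1-way tests and to the range of the 6 group means in the 2-way model. The test was checked on simulated data with known changes. The members and all gene lists were chosen with earlier results of these data known. Genes of the 5 pathway lists were named if called, at most 4 per comparison and list by smallest adjusted p, and 5 nearest genes were named per called member. The alternatives tried are in the closing section. Precision is limited by the 3 or 4 arrays of a group.

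Groups and replicate numbers came from the labels. Same-numbered rats did not deviate together (correlation of residuals −0.273 to 0.123, median −0.0129, over 0.1 in 1 of 20 pairs), so the numbers were not used to pair rats. Gapdh 3′ minus 5′ signal was 0.346 to 0.638 on 4 arrays (rat 3 of 2-h Vehicle, rat 1 of 2-h Severe PE, rat 1 of 18-h Vehicle and rat 4 of 18-h Mild PE), named arrays of low 5′ signal here, against at most 0.321 elsewhere.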

Additional observations from a re-analysis of the deposited data

Results flagged for a closer look

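Single rats stood apart from the other 3 of their group in 3 of 32 sets of 4 values (8 members, 4 PE groups) by Dixon's test, of which chance flags about 1 in 20. Areg in 2-h Mild PE rat 1 was 8.05 with the nearest rat at 7.70, Ereg in 18-h Mild PE rat 2 was 5.71 with the nearest at 6.37, and Tgfa in 18-h Severe PE rat 4 was 9.84 with the nearest at 9.17. Without Mild PE rat 1 the 2-h Areg difference between the doses was 2.03 (limma adjusted p = 0.0383). The interaction of time and dose over all 22 arrays was called for Hbegf in the main analysis (adjusted p = 0.0409). This call was fragile: it held in 6 of the 22 fits that omitted a rat and in 5 of 9 other alternatives. The highest mean of Hbegf was in Severe PE at 2 h and in Mild PE at 18 h. At 18 h, however, the rats of the 2 doses overlapped, and Severe PE differed from Mild PE by −0.09 ± 0.15 (limma adjusted p = 0.842).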

How the results depend on the processing

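The calls of Hbegf, Areg and Ereg by the 1-way test at 2 h and by dose in the 2-way model were made under each alternative that kept the gene and with any 1 rat left out. Leaving out the dimmer probesets removed Ereg. No called difference changed sign in any alternative. The share of all genes called was not counted in the alternatives. A changed count of members below therefore cannot be set against all genes. In 2-h Severe PE against Vehicle, the members called were 1 in the main analysis, 0 with the replicate block, 3 (Hbegf, Areg and Ereg) in 1 fit on all 22 arrays, 2 without the dim probesets, 0 without the arrays of low 5′ signal, and 0 to 1 with 1 rat left out. In 2-h Severe PE against Mild PE, they were 2 in the main analysis, 0 with the replicate block, 1 by the methods' t-test (Areg) and 0 to 2 with 1 rat left out. In 18-h Mild PE against Vehicle 1 member, Hbegf, was called in 1 fit on all arrays and without the dim probesets. In 18-h Severe PE against Vehicle the counts were 3 in 1 fit on all arrays, 2 without the dim probesets, 1 (Ereg) without further normalization, by a gene's mean over its probesets and with the low-5′ arrays left out, and 0 to 1 with 1 rat left out. Between doses at 18 h, 1 fit on all arrays called 1 member (Ereg). By the 1-way test at 18 h the count of 2 became 3 (Hbegf, Areg and Ereg) in 1 fit on all arrays and by a gene's mean over its probesets, 1 with a variance trend, 0 with the replicate block, 0 by the methods' ANOVA, 1 without the arrays of low 5′ signal and 0 to 2 with 1 rat left out. For time in the 2-way model the count of 0 became 1 with median centring (Erbb3), 1 without further normalization (Areg), 1 with the replicate block (Erbb3), 3 without the dim probesets, 1 without the arrays of low 5′ signal (Egfr) and 0 to 2 with 1 rat left out. For the interaction the count of 1 became 0 with median centring, 0 with the replicate block, 0 by the methods' ANOVA, 2 without the dim probesets, 0 without the arrays of low 5′ signal and 0 to 2 with 1 rat left out. The change of the Severe PE effect between times was called for 1 member (Hbegf) without the dim probesets and for 0 to 1 with 1 rat left out. With median centring the median difference over all probesets was 0.17 between the Vehicle groups and −0.04 to 0.04 within a time. In the main analysis the median over genes was 0.06 between the Vehicle groups. The cause of these changes was not tested. Fits with rats left out had fewer arrays, those without the dim probesets fewer probesets, and 1 fit on all arrays a shared estimate of spread. Same-numbered rats were not paired by any label, and the replicate block changed no other count of members.

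With 3 Vehicle rats, differences between PE and Vehicle had SEs of up to 0.82 among the members (Btc), and Btc and the dimmest Egfr probeset were too near the lowest value for small changes to be seen. The summary of the probes differs from that of the study's methods, and the 3 ligands called have 1 probeset each, so no second probeset tests them.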
